A study of Mus musculus with 6 samples.

Results

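The CD300 receptor family was followed in tumor-associated macrophages (TAMs) from mice labelled Pdcd1f/f and Pdcd1f/fLysMcre, a floxed allele of the checkpoint gene Pdcd1 without and with a myeloid Cre. Its 7 members, Cd300a, Cd300lf, Cd300lb, Cd300ld, Cd300e, Cd300c2 and Cd300lg, were chosen by name, matched to the Ensembl genes of the count table, and make up 7 of the 55421 genes listed and 7 of the 14469 genes that passed the expression filter of the test. The annotation holds 12 CD300 genes in all, and the other 5 are described at the end. TAMs, CD11b+F4/80+ cells, were sorted 15 days after mice received a fibrosarcoma, named M17 in the labels. All 6 libraries came from mice with floxed Pdcd1 (Pdcd1f/f), 3 of them without Cre and 3 with Cre expressed from the lysozyme M promoter (Pdcd1f/fLysMcre), which acts in macrophages, monocytes and neutrophils alike. The methods of the study describe adult mice of both sexes, and a TAM sort that also required CD45+ and Ly6G- cells, the latter stated for another deletion. The libraries are polyA RNA-seq with 41833823 to 51417209 counts each. The labels do not say that each library is 1 mouse, so the p-values measure the spread between libraries.

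CD300 proteins are small immunoglobulin-like receptors of myeloid cells, several of which bind lipids such as phosphatidylserine or ceramide that become exposed on dying cells and in membranes. The family is built of opposed receptors. CD300a and CD300LF (CLM-1) carry inhibitory tyrosine motifs in their cytoplasmic tails, which when phosphorylated recruit phosphatases such as SHP-1, SHP-2 and SHIP, whereas CD300LB (CLM-7), CD300LD (CLM-5), CD300E (CLM-2) and CD300C2 (MAIR-II) have short tails and signal through adaptors with activating motifs, mainly DAP12 (Tyrobp) and the Fc receptor gamma chain (Fcer1g). CD300LG, also called nepmucin, stands apart as an adhesion receptor of endothelium. PD-1, the product of Pdcd1, is itself an inhibitory receptor that recruits SHP-2.

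The members' coding sequences pair inhibitory with activating receptors. Computed from the GENCODE transcripts of GRCm38, among the members Cd300a was closest to the activating Cd300c2, with 81.3% identical bases over the aligned coding sequence, and Cd300lf was closest to the activating Cd300ld, with 82.2%. The inhibitory members shared only 62.0% with each other. Their reading frames also differ in length, with 318 codons in Cd300a and 337 in Cd300lf against 228 in Cd300c2 and 221 in Cd300ld. The longest coding stretches that an inhibitory and an activating member share without a mismatch are shown. A read within them, taken without its mate, cannot tell an inhibitory from an activating receptor. The first is 140 bases that Cd300a carries in exons 2 and 3 (chr11:114893456-114894658, plus strand, GRCm38, with the intron between them) and Cd300c2 in its exons 2 and 3 (chr11:114998335-115000767, minus strand). The second is 134 bases in exon 2 of Cd300lf (chr11:115126150-115126283, minus strand) and exon 2 of Cd300ld (chr11:114987342-114987475, minus strand). Both are printed 5′ to 3′ in lower case, since every base is shared.
Cd300a and Cd300c2: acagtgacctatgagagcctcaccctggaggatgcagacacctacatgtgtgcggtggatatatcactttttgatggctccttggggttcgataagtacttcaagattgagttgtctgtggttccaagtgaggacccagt
Cd300lf and Cd300ld: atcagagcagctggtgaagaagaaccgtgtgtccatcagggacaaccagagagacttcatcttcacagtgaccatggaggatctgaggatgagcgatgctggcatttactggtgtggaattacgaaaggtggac
Reads were paired and 42 bases long, and a mate outside a shared stretch can place its pair. The percentages that follow take each read alone. Of all stretches of that length in a gene's transcripts, 8.03% in Cd300c2, 4.95% in Cd300ld, 4.69% in Cd300a and 3.20% in Cd300lf occurred in another gene, and none did in Cd300e or Cd300lb. The counts of the 4 paired genes therefore rest mostly on sequence of their own, with a small part that the counting could have dropped or split, and how reads matching several genes were treated is not given in the sources used here.

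**Figure D1:**
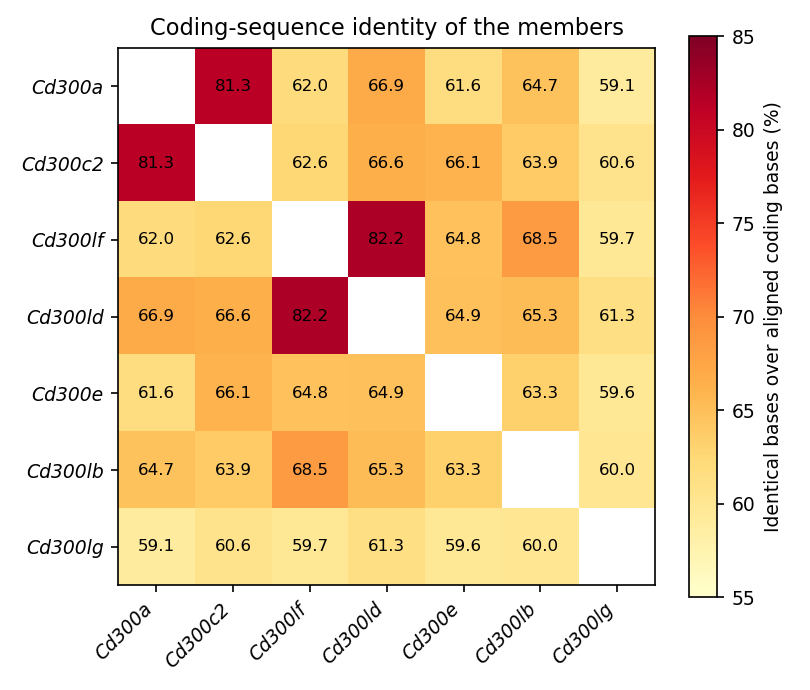
Identity of the coding sequences of the 7 members, as the percentage of identical bases over the aligned bases of each pair. The pairs Cd300a with Cd300c2 (81.3%) and Cd300lf with Cd300ld (82.2%) stand above the other pairs, and Cd300lg is the most distant from every other member.

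Before the comparison, the libraries themselves were examined. Lyz2, the lysozyme gene into which the Cre is inserted, fell from between 207970 and 225230 normalized counts without Cre to between 405 and 465 with it, which separates the libraries as labelled. Pdcd1 had 10, 12 and 15 counts in Pdcd1f/f and 7, 16 and 11 in Pdcd1f/fLysMcre libraries (edgeR adjusted p 0.771), so counts over the whole gene do not show its deletion. Summed Y-linked transcripts ranged from 1545 to 1914 normalized counts in Pdcd1f/f and from 6267 to 7233 in Pdcd1f/fLysMcre libraries, and Xist was lower in every Pdcd1f/fLysMcre library. The Pdcd1 genotype, the presence of Cre with the loss of Lyz2, and a different mix of sexes cannot be told apart in these data. Deviations of Pdcd1f/f replicate 1 and Pdcd1f/fLysMcre replicate 2 from their group means followed gene GC content in the opposite sense to the other 4 libraries. Spearman rho was −0.80 and −0.75 across 8813 genes, against 0.22 to 0.77. Deviations from a group mean cancel within the group, so opposite signs are largely built in and do not mark these 2 as outliers. Pdcd1f/fLysMcre replicate 3 (rho 0.77) deviated as strongly as replicate 2. Results without Pdcd1f/f replicate 1 and Pdcd1f/fLysMcre replicate 2 are also given, as a description.

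Of the 7 members, 5 differed between the genotypes past an adjusted p of 0.05 (edgeR quasi-likelihood fit, Benjamini-Hochberg adjustment over all 14469 genes), against 5.43% of all genes tested. Cd300a, Cd300lf, Cd300e and Cd300c2 were lower in Pdcd1f/fLysMcre TAMs, where 3.01% of all genes were called, and Cd300lb was higher, where 2.42% were. The median log2 fold change (log2FC, Pdcd1f/fLysMcre over Pdcd1f/f) of the members was −0.42, against −0.00258 for all genes tested. The members were chosen with earlier results of these data known, so these comparisons with all genes are descriptions. Both inhibitory members fell, and of the 4 activating members 2 fell, 1 rose and 1 was not past the threshold. In bulk RNA a receptor carried by fewer cells and a receptor with less RNA per cell cannot be told apart. The libraries of the 2 genotypes did not overlap in 6 members, 4 lower and 2 higher in Pdcd1f/fLysMcre TAMs, against 13.1% of all genes lower and 14.1% higher without overlap.

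**Figure D2:**
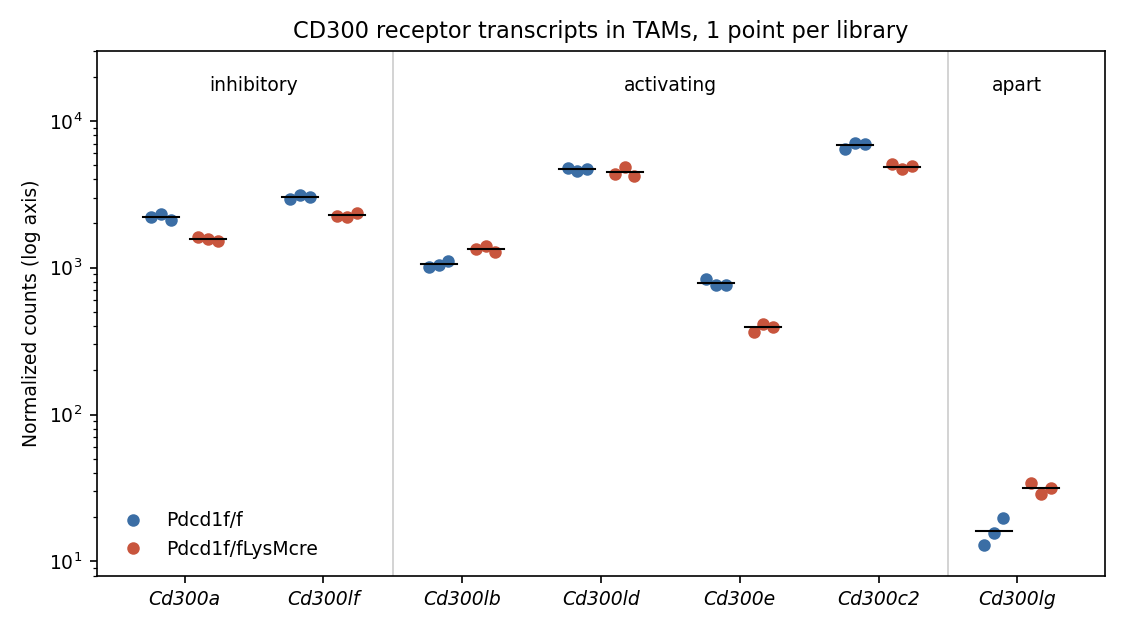
Normalized counts of each member on a log axis, 1 point per library and a black line at the mean of 3, with Pdcd1f/f in blue and Pdcd1f/fLysMcre in red. The groups do not overlap in 6 members and overlap only in Cd300ld, and Cd300lg lies under 40 counts in all libraries.

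The inhibitory members fell by similar amounts. Cd300a (ENSMUSG00000034652, chr11:114890041-114904654, plus strand), a receptor for phosphatidylserine and phosphatidylethanolamine, was measured at 2199, 2315 and 2128 normalized counts in the control libraries and at 1606, 1574 and 1519 with Cre. Every Pdcd1f/fLysMcre library lay below every control. The means were 2214 ± 94.4 and 1567 ± 44.1 (mean ± SD, 3 libraries each), a log2FC of −0.50 (SE 0.07, 95% interval −0.65 to −0.34, edgeR adjusted p 0.00277). Cd300lf (ENSMUSG00000047798, chr11:115116214-115133992, minus strand) is a ceramide-binding receptor that restrains mast cells and other myeloid cells, and in mice it is the receptor of norovirus. It had 2954, 3144 and 3043 normalized counts in Pdcd1f/f and 2243, 2228 and 2370 in Pdcd1f/fLysMcre libraries, again with no overlap. The means of 3047 ± 95.3 and 2280 ± 78.0 (mean ± SD, 3 libraries each) gave a log2FC of −0.42 (SE 0.07, 95% interval −0.56 to −0.27, edgeR adjusted p 0.00528). Cd300a kept its call whichever library was omitted, while Cd300lf had an adjusted p of 0.0532 without Pdcd1f/f replicate 2 and of 0.0543 without Pdcd1f/fLysMcre replicate 1 (edgeR). Per kilobase of annotated exons and scaled to library size (CPM per kilobase) the level of Cd300lf was 12.6 ± 0.423 and that of Cd300a 9.95 ± 0.472 in Pdcd1f/f TAMs (mean ± SD, 3 libraries each). The annotated exons of Cd300lf span 5149 bases and its longest protein-coding transcript 1885. With the latter length the level of Cd300lf was 34.4 ± 1.15 (mean ± SD, 3 libraries), a scale chosen after the data were seen.

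Among the activating members Cd300e changed most. Cd300e (ENSMUSG00000048498, chr11:115051917-115062177, minus strand), an activating receptor of monocytes, had 842, 761 and 758 normalized counts in Pdcd1f/f libraries and 366, 416 and 396 in Pdcd1f/fLysMcre libraries. The groups were well separated, with means of 787 ± 47.7 and 393 ± 25.1 (mean ± SD, 3 libraries each). The log2FC was −1.0 (SE 0.09, 95% interval −1.21 to −0.79, edgeR adjusted p 2.8e-04) and ranged from −1.04 to −0.95 when single libraries were omitted, with 6 of 6 such fits calling it. No stretch of read length in this gene occurred in another gene.

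Cd300c2 (ENSMUSG00000044811, chr11:114996721-115001880, minus strand), which encodes MAIR-II, the activating counterpart of the inhibitory MAIR-I (CD300a), was the most abundant member. It had 6428, 7040 and 6945 normalized counts in Pdcd1f/f and 5044, 4691 and 4904 in Pdcd1f/fLysMcre libraries. The means of 6804 ± 329 and 4880 ± 178 (mean ± SD, 3 libraries each), from libraries without overlap, gave a log2FC of −0.48 (SE 0.06, 95% interval −0.62 to −0.33, edgeR adjusted p 0.00238), past the threshold in all 6 leave-one-out fits. The 95% interval of Cd300a, the inhibitory gene whose coding sequence is closest to it, covers this value. The ratio of Cd300a to Cd300lf was 0.727 ± 0.0240 in Pdcd1f/f and 0.688 ± 0.0409 in Pdcd1f/fLysMcre TAMs (mean ± SD, 3 libraries each), with overlapping libraries.

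Cd300ld (ENSMUSG00000034641, chr11:114982274-114989922, minus strand) is the activating gene closest to Cd300lf and is also highly expressed on neutrophils. It had 4789, 4518 and 4683 normalized counts in Pdcd1f/f and 4356, 4811 and 4217 in Pdcd1f/fLysMcre libraries. These overlap, and the log2FC of −0.06 (SE 0.07, edgeR adjusted p 0.612) had a 95% interval from −0.21 to 0.09, which does not meet the interval of Cd300lf, although the difference between the 2 genes was not tested. It was past the threshold in none of the 16 alternative fits. Cd300c2 and Cd300ld, both activating, did not move together. The ratio of Cd300c2 to Cd300ld in normalized counts was 1.34, 1.56 and 1.48 in Pdcd1f/f and 1.16, 0.975 and 1.16 in Pdcd1f/fLysMcre libraries, all of the latter below all of the former.

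Cd300lb (ENSMUSG00000063193, chr11:114922781-114934386, minus strand) was the member that rose. CD300LB signals through DAP12 and its own tyrosine motif, and has been described as binding lipopolysaccharide and joining the TLR4 complex. It had 1016, 1045 and 1111 normalized counts in Pdcd1f/f and 1338, 1415 and 1270 in Pdcd1f/fLysMcre libraries. No library overlapped with the other group, and the means of 1057 ± 48.3 and 1341 ± 72.5 (mean ± SD, 3 libraries each) gave a log2FC of 0.35 (SE 0.08, 95% interval 0.17 to 0.52, edgeR adjusted p 0.0292). This was the least stable of the 5 calls. It held when Pdcd1f/f replicate 1 or Pdcd1f/fLysMcre replicate 3 was omitted, and its adjusted p was 0.158 without Pdcd1f/f replicate 2, 0.0642 without Pdcd1f/f replicate 3, 0.128 without Pdcd1f/fLysMcre replicate 1 and 0.0970 without Pdcd1f/fLysMcre replicate 2 (edgeR). Cd300e and Cd300lb, which both signal through DAP12, moved apart. Their ratios therefore separated the groups by arithmetic, which adds no evidence beyond their separate changes. Cd300e had 0.828, 0.728 and 0.682 times the normalized counts of Cd300lb in control libraries and 0.274, 0.294 and 0.312 times with Cre.

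Cd300lg (ENSMUSG00000017309, chr11:102041509-102055620, plus strand) had few counts, 14, 14 and 18 counts in Pdcd1f/f and 37, 30 and 32 counts in Pdcd1f/fLysMcre libraries. The libraries did not overlap, which was also the case for 27.2% of all genes tested, but the log2FC of 0.97 (SE 0.31, 95% interval 0.29 to 1.65, edgeR adjusted p 0.0914) was not past the threshold. Among 16 alternative fits 1 called it, that with GC and length offsets (edgeR adjusted p 0.0397, over a range of 0.0397 to 0.295). Of 8 endothelial markers listed beside it, 6 were tested. Pecam1 was lower and none was higher in edgeR, where 3.01% and 2.42% of all genes were. Their summed normalized counts were 1907 to 2038 in Pdcd1f/f and 1550 to 1696 in Pdcd1f/fLysMcre libraries, a difference that lay in Pecam1 (1082 ± 47.4 and 702 ± 62.4, mean ± SD, 3 libraries each), while Kdr had 691 ± 15.8 and 698 ± 27.8 and Cdh5 169 ± 3.56 and 168 ± 11.5.

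**Figure D3:**
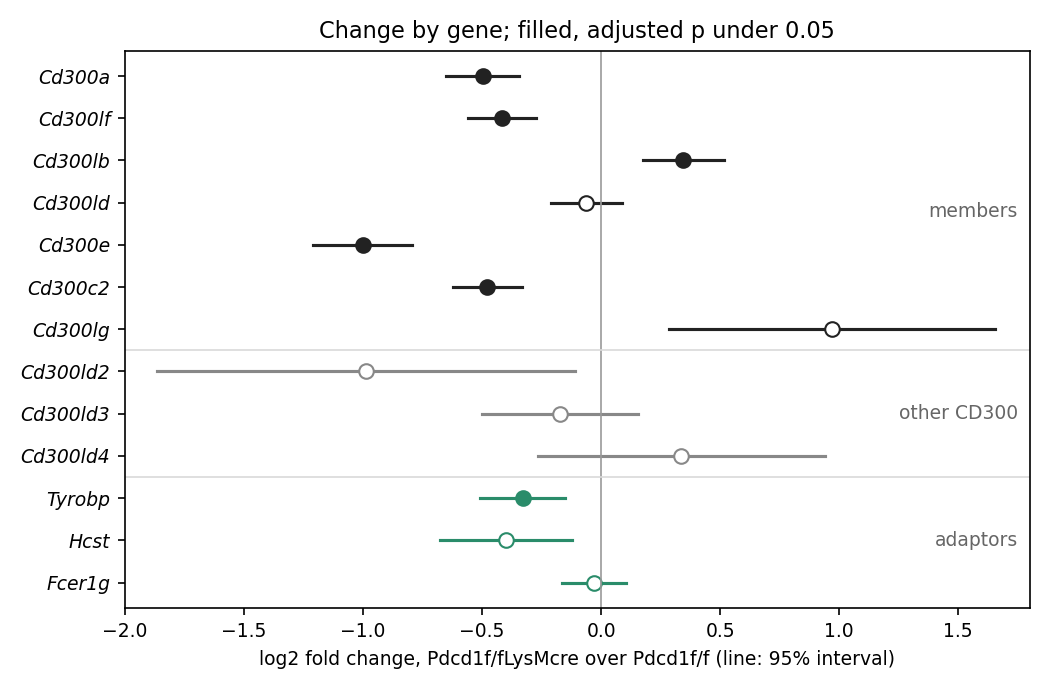
Log2 fold changes of Pdcd1f/fLysMcre over Pdcd1f/f for the 7 members, the 3 other CD300 genes that were tested and the 3 adaptor genes, with 95% intervals as lines and filled points for an adjusted p under 0.05. The 4 members that fell lie between −1.0 and −0.42, Cd300lb lies at 0.35, and the interval of Cd300ld spans 0.

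Without Pdcd1f/f replicate 1 and Pdcd1f/fLysMcre replicate 2, the libraries whose deviations followed GC content in the other sense, 5 members were again past the threshold, in a fit that called 3757 of 14354 genes. Log2 fold changes were then −0.51 for Cd300a, −0.43 for Cd300lf, −1.0 for Cd300e, −0.49 for Cd300c2 and 0.27 for Cd300lb, with −0.11 for Cd300ld and 0.89 for Cd300lg, which were not past it. Each member kept the sign of its change.

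The make-up of the CD300 transcripts shifted with these changes. The normalized counts of the 6 members other than Cd300lg summed to 18573 ± 309 in Pdcd1f/f and 14922 ± 231 in Pdcd1f/fLysMcre TAMs (mean ± SD, 3 libraries each). The inhibitory members had 28.3%, 29.0% and 27.7% of this sum without Cre and 25.7%, 25.1% and 26.5% with it, so their share was lower in each of the latter with a mean difference of −2.54 percentage points. Most of the remainder was Cd300c2 and Cd300ld. The share of Cd300c2 went from 36.6% ± 1.18 to 32.7% ± 1.5, that of Cd300ld from 25.1% ± 1.13 to 29.9% ± 1.66, that of Cd300lb from 5.69% ± 0.223 to 8.98% ± 0.349 and that of Cd300e from 4.24% ± 0.328 to 2.63% ± 0.161 (mean ± SD, 3 libraries each). The shift of the inhibitory share was smaller than those of Cd300c2, Cd300ld and Cd300lb alone, and its size depended on the scale. Divided by exon length the inhibitory share was 11.9% and 11.2%, a difference of −0.75 percentage points, and without Cd300c2 in the sum it was 44.7% and 38.3%, a difference of −6.36. Counts of a longer gene weigh more in such a sum, and the shares are given as descriptions without a test.

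**Figure D4:**
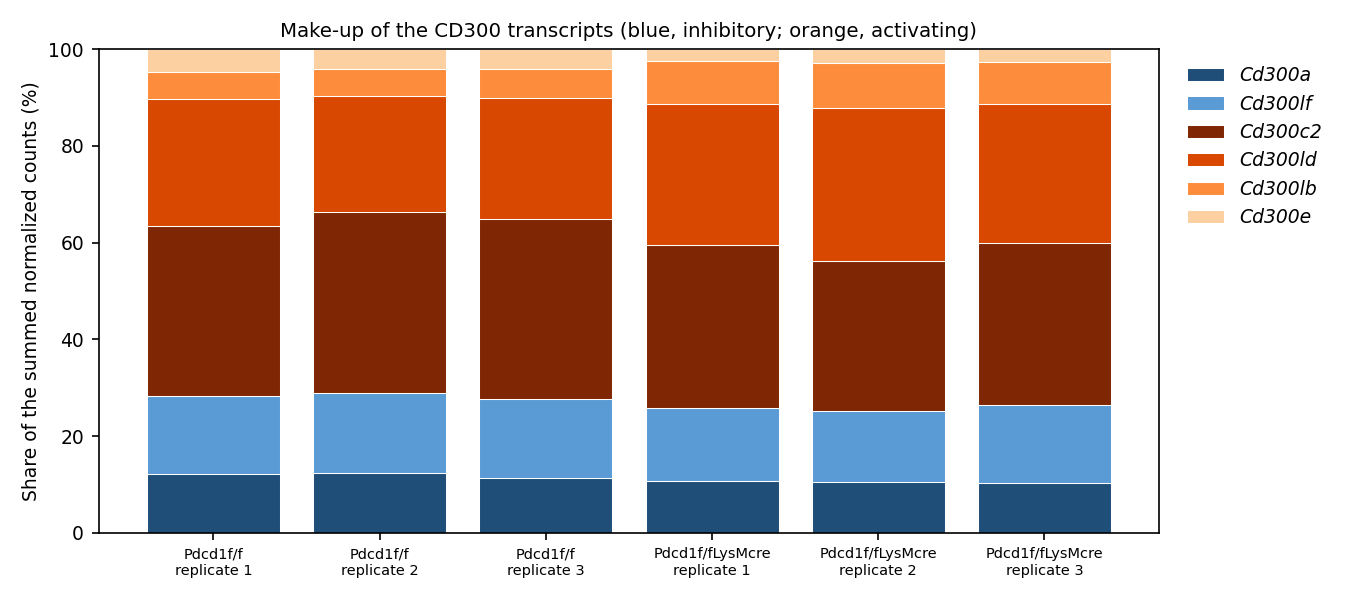
Share of each of 6 members in their summed normalized counts in each library, in percent, with inhibitory members in blue at the bottom and activating members in orange. The blue part spans 27.7% to 29.0% in Pdcd1f/f and 25.1% to 26.5% in Pdcd1f/fLysMcre libraries, and the Cd300lb part is wider in the latter.

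Levels between genes were compared as CPM per kilobase of annotated exons. In Pdcd1f/f TAMs Cd300c2 was highest with 114 ± 5.52, followed by Cd300ld with 37.6 ± 1.03, then Cd300lf and Cd300a, Cd300e with 8.03 ± 0.497 and Cd300lb with 7.72 ± 0.322 (mean ± SD, 3 libraries each). The libraries of Cd300e and Cd300lb overlapped, so these neighbours were not separated, and Cd300lg came last with 0.125 ± 0.0259. In Pdcd1f/fLysMcre TAMs Cd300c2 led again with 80.6 ± 3.29 before Cd300ld with 35.5 ± 2.20. Cd300lb had moved to the level of Cd300lf, with 9.68 ± 0.441 and 9.33 ± 0.403, whose libraries overlapped, and Cd300e, at 3.96 ± 0.248, lay below Cd300a at 6.97 ± 0.153 (mean ± SD, 3 libraries each). With the length of the longest protein-coding transcript, Cd300lf was above Cd300lb in both genotypes, with 25.5 ± 1.10 against 9.81 ± 0.447 in Pdcd1f/fLysMcre TAMs (mean ± SD, 3 libraries each), and the places of Cd300c2 and Cd300ld did not change.

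Most CD300 genes lie together. The cluster spans chr11:114890041-115133992 of GRCm38 with 11 of the 12 annotated CD300 genes, while Cd300lg is 12.8 Mb away on the same chromosome. Cd300lb, which rose, lies between Cd300a and Cd300c2, which fell, so that neighbours in the cluster moved in different directions. Within 100000 bases on either side, 5 of 10 other annotated genes were tested. None was past the threshold in DESeq2, in limma or in edgeR, where 5.43% of all genes were. With GC and length offsets, which called 2565 of 14469 genes, 1 was called, Tmem104 (edgeR adjusted p 0.0192). The 5 were Kif19a, Gprc5c, Slc9a3r1, Nat9 and Tmem104, with log2FCs from −1.36 to −0.10. Their median was −0.33, against −0.00258 for all genes tested. In edgeR 3 had an unadjusted p under 0.05, Kif19a, Gprc5c and Tmem104, each also called in 1 of 6 leave-one-out fits. Kif19a and Gprc5c were lower without overlap, as were 13.1% of all genes. A processed pseudogene lies within Cd300lb and Rab37 overlaps Cd300lf on the other strand, but neither shares an exon base with them.

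**Figure D5:**
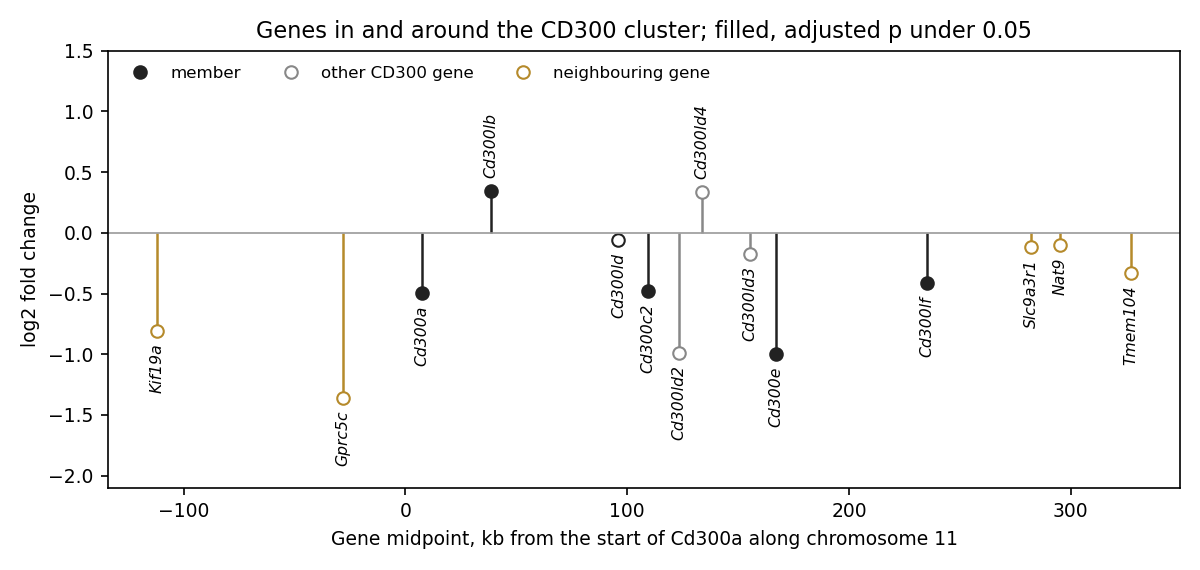
Log2 fold changes of the tested genes in and around the CD300 cluster against the distance of their midpoints from the start of Cd300a in kilobases, with filled points for an adjusted p under 0.05. Members (black) that fell stand on both sides of Cd300lb, at 0.35, and none of the 5 neighbouring genes (brown) is filled.

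The start regions of members that fell and of the member that rose are shown because genes of 1 cluster moved in different directions. RefSeq promoter windows of GRCm38.p6, from 250 bases before to 50 after the start, were found for 6 of the 7 members, not for Cd300lg. They were searched on both strands for the ETS core GGAAGT, bound by PU.1 and its relatives in myeloid cells, and for the AP-1 letters TGANTCA, where N is any base. The ETS core was present in 23.8% of all 32851 windows and in 5 of the 6 members, absent only from Cd300a. The AP-1 letters were present in 7.81% of all windows and in none of the 6. The windows follow 5′ to 3′ on the strand of the gene, with matches to the ETS core in capitals, for Cd300lf (chr11:115133943-115134242), Cd300e (chr11:115061990-115062289), Cd300c2 (chr11:115001831-115002130) and Cd300lb (chr11:114934322-114934621), all on the minus strand.
Cd300lf: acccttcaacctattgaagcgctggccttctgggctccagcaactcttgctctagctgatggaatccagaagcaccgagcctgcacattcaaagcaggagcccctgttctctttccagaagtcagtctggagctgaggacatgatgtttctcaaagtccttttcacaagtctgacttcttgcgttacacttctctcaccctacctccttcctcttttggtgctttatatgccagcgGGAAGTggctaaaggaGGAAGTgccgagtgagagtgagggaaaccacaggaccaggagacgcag
Cd300e: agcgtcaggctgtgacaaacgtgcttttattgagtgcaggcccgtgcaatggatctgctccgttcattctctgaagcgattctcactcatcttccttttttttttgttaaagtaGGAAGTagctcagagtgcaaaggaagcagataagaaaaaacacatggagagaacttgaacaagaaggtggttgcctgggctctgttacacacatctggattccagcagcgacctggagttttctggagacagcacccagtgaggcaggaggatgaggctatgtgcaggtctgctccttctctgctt
Cd300c2: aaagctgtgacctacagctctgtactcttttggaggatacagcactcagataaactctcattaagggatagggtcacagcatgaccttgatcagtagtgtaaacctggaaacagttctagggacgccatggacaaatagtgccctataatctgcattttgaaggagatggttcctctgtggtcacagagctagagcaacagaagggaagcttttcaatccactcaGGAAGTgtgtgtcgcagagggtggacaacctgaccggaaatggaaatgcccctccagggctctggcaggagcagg
Cd300lb: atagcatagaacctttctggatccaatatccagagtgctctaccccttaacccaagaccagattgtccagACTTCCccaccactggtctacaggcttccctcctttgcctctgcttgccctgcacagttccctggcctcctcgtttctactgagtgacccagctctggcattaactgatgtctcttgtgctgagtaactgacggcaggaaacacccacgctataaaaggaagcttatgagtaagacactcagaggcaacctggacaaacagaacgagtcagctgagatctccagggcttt
The match nearest before the start lay 14 bases from it in Cd300lf, 25 bases in Cd300c2 and 136 bases in Cd300e, all on the strand of the gene, and 180 bases in Cd300lb, on the opposite strand. Cd300ld, which was not past the threshold, had 2 matches, 141 and 37 bases before its start. Matches were thus present whether a member fell, rose or was not past the threshold, and they are letters in a window, not measured binding.

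Genes for the adaptors and effectors through which the members signal were listed in 3 groups, and over all of them edgeR called Tyrobp as lower and Pik3r1 as higher, beside 5.43% of all genes tested. Tyrobp, which encodes DAP12, had 22065, 25417 and 26082 normalized counts in Pdcd1f/f and 20512, 18038 and 19922 in Pdcd1f/fLysMcre libraries. The groups did not overlap, with means of 24521 ± 2153 and 19491 ± 1292 (mean ± SD, 3 libraries each). Its log2FC of −0.33 (SE 0.08, edgeR adjusted p 0.0405) passed with all libraries but in only 1 of 6 leave-one-out fits, and was −0.16 with the GC and length offsets, where it was called (edgeR adjusted p 0.0122), as it was in DESeq2 (adjusted p 0.00312). Hcst, encoding DAP10, had a log2FC of −0.40 (SE 0.12, adjusted p 0.0870), and Fcer1g one of −0.03 (SE 0.06, adjusted p 0.793, both from edgeR). With GC and length offsets the log2FC was −0.20 for Hcst (edgeR adjusted p 0.227) and 0.07 for Fcer1g (edgeR adjusted p 0.302). None of 6 inhibitory effectors was past the threshold in edgeR or limma, 2 were in DESeq2 (of all genes 1517 of 12693 were) and 2 with GC and length offsets (of all genes 2565 of 14469 were), and 3 had an unadjusted p under 0.05 in edgeR. They include the phosphatase genes Ptpn6 (SHP-1; log2FC −0.12, adjusted p 0.441), Ptpn11 (SHP-2; −0.00, adjusted p 0.994) and Inpp5d (SHIP; −0.22, adjusted p 0.0718, all from edgeR). Inpp5d was among those called in DESeq2 (adjusted p 0.0224) and with offsets (edgeR adjusted p 0.00538). Of 14 effectors of activating receptors, edgeR called 1, Pik3r1, a regulatory subunit of PI3-kinase, from 9793 ± 713 to 12377 ± 590 normalized counts (mean ± SD, 3 libraries each; log2FC 0.34, edgeR adjusted p 0.0207), in 2 of 6 leave-one-out fits. Beside the same counts over all genes, DESeq2 called 2 and the fit with offsets 6 of the 14. Both included the catalytic subunit Pik3cd as lower (log2FC −0.36 without offsets in edgeR), the opposite direction to Pik3r1. Besides Pik3r1 and Pik3cd, the fit with offsets called Fgr (log2FC 0.26), Plcg2 (0.21) and Src (0.13) higher and Lyn (−0.11) lower.

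Receptors that CD300 proteins are known to act beside, and other receptors for phosphatidylserine, were listed as well. Of 9 partner receptors and their signaling proteins, edgeR called 2 lower and none higher, beside 3.01% and 2.42% of all genes. With GC and length offsets, under which 2565 of 14469 genes were called, 5 were, including Cd14 as higher (log2FC 0.22, edgeR adjusted p 2.1e-04) and Tlr4 as lower (log2FC −0.22, edgeR adjusted p 0.00859). Without offsets the log2FC was 0.15 for Cd14 (edgeR adjusted p 0.163) and −0.07 for Tlr4 (edgeR adjusted p 0.652). DESeq2, with 1517 of 12693 genes called, called 3, with Fcgr2b as the addition. Il4ra, the interleukin-4 receptor chain, which CD300LF can join, had 33012 ± 4483 and 17993 ± 1651 normalized counts (mean ± SD, 3 libraries each), a log2FC of −0.87 (SE 0.10, edgeR adjusted p 0.00102). The low-affinity Fc receptor gene Fcgr3 had 24209 ± 286 and 17654 ± 164 (mean ± SD, 3 libraries each), a log2FC of −0.45 (SE 0.06, edgeR adjusted p 0.00137). Both kept their calls in the 6 leave-one-out fits. Of 12 tested phosphatidylserine receptors and bridging factors, 5 were lower and 2 higher in edgeR, where 3.01% and 2.42% of all genes were. Lower were the apoptotic-cell receptor kinase Mertk (log2FC −0.61), the scavenger receptor Stab1 (−0.71), the bridging ligands Gas6 (−0.59) and Pros1 (−0.37) and the lipid receptor Trem2 (−0.38), and higher were the integrin subunits Itgav (0.34) and Itgb3 (0.36). Mertk and Stab1 kept their calls in 6, Gas6 in 4 and the other 4 genes in 2 of the 6 leave-one-out fits. Another listed integrin subunit, Itgb5, was lower without overlap (log2FC −0.36, edgeR adjusted p 0.0513), as were 13.1% of all genes. It was called in DESeq2 (adjusted p 0.00543) and with GC and length offsets (edgeR adjusted p 0.00138). Of the 12 genes, DESeq2 called 8 and the fit with offsets 8, beside 1517 of 12693 and 2565 of 14469 over all genes. Over the 44 tested genes of these 5 lists, 3 were higher and 8 lower in edgeR, against 5.43% of all genes called in either direction, with a median log2FC of −0.12 against −0.00258 for all genes tested.

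Cell type markers were set beside the members, since a sort can hold several kinds of cell. Of 8 macrophage markers, Adgre1, Csf1r, Mrc1 and C1qa were lower and none was higher in edgeR, where 3.01% and 2.42% of all genes were, and the 4 kept their calls in 4, 2, 3 and 3 of 6 leave-one-out fits. The summed normalized counts of the 8 were 395570 to 413780 in Pdcd1f/f and 330260 to 336410 in Pdcd1f/fLysMcre libraries. All 8 neutrophil markers together had 1672 to 2152 and 2074 to 2225, nearly all from S100a8 (1253 ± 206 and 1473 ± 71.8, mean ± SD, 3 libraries each) and S100a9 (575 ± 32.4 and 626 ± 20.8), with Ly6g, Elane and Camp at 3 counts or fewer in every library. None of the 3 tested neutrophil markers was called in edgeR, DESeq2 or limma (1 with an unadjusted p under 0.05 in edgeR), while S100a8 was higher with GC and length offsets (edgeR adjusted p 0.011) and Retnlg was lower without overlap (edgeR adjusted p 0.11). The 7 mast cell markers summed to 193 to 208 and 172 to 272, nearly all from Kit (log2FC 0.25, edgeR adjusted p 0.39), with Cpa3 at 6 counts or fewer and Mcpt4, Tpsb2, Cma1, Fcer1a and Ms4a2 at 3 counts or fewer in every library. The 7 dendritic cell markers summed to 247 to 325 and 329 to 394, with Xcr1 and Siglech at 3 counts or fewer and none of the 4 tested past the threshold in edgeR, DESeq2 or limma. Flt3 (log2FC 0.67, edgeR adjusted p 0.137, without overlap) and Zbtb46 (0.69, edgeR adjusted p 0.12) had an unadjusted p under 0.05 in edgeR, and the median log2FC of the 4 was 0.55. The 7 fibroblast and tumor markers, of which Col1a2 was lower, summed to 2912 to 3121 and 2739 to 3000, those of T and NK cells to 589 to 662 and 529 to 621, nearly all of it Cd4 (611 ± 43.1 and 572 ± 60.2, mean ± SD, 3 libraries each) with 11 counts or fewer for each other marker, and those of B cells to at most 19.0. The part of these shifts in the members' changes was not tested.

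Genes with the profile most like that of Cd300e, the member with the smallest p, were ranked by Pearson's r of log2 CPM over the 6 libraries. The leading 5 were Lyplal1 (r = 0.998), Jaml, Tnr, Tsc22d3 and Mertk (r = 0.994). The 6 points fall into the 2 genotypes, so any gene that differs strongly between them has a high r. All 5 were lower in Pdcd1f/fLysMcre TAMs, with log2FCs of −2.97 for Lyplal1, −1.33 for the adhesion molecule Jaml, −0.89 for Tnr and −0.30 for Tsc22d3. Among the members themselves, r was 0.98 for Cd300lf and Cd300c2 and −0.94 for Cd300e and Cd300lb, whereas for Cd300ld and the other 5 members of the cluster it lay between −0.27 and 0.54.

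Of the other 5 CD300 genes, Cd300ld3 was counted at the level of the lower members and the rest had few counts. Cd300c had between 1 and 4 counts in each library and was not tested. Cd300ld2 had 52, 40 and 31 counts in Pdcd1f/f and 31, 9 and 27 in Pdcd1f/fLysMcre libraries (log2FC −0.99, edgeR adjusted p 0.161). Cd300ld3 had 369, 269 and 220 counts in Pdcd1f/f and 297, 240 and 286 in Pdcd1f/fLysMcre libraries, 7.37 ± 1.30 CPM per kilobase in the former (mean ± SD, 3 libraries), beside 7.72 for Cd300lb. Its log2FC was −0.17 (adjusted p 0.508) and that of Cd300ld4 0.34 (adjusted p 0.476, both from edgeR), with overlapping libraries. DESeq2 and limma called none of these 3 either, and 1 had an unadjusted p under 0.05 in edgeR. Cd300ld5 was at 0 in all libraries, but every read-length stretch of it also occurs in another gene, as do 94.8% of those of Cd300ld4, 82.6% of those of Cd300ld3 and 34.8% of those of Cd300ld2. Their counts are therefore uncertain, and a 0 for Cd300ld5 says nothing of its expression.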

How the data were processed

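TAM RNA of 3 Pdcd1f/f and 3 Pdcd1f/fLysMcre libraries was measured. The authors made stranded polyA libraries, sequenced paired 42-base reads, trimmed them with cutadapt 2.5, aligned them to GRCm38 with STAR 2.7.3a and deposited raw counts per Ensembl gene from featureCounts (Subread 1.6.2). The strand setting is not given in the sources used here. The authors also deposited a normalized signal, the counts of each library divided by a DESeq2 (1.24.0) size factor between 0.895 and 1.08. These values are printed as normalized counts.

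The genotypes were compared on raw counts with edgeR 4.0.16 (R 4.3.3), using filterByExpr (minimum count 10, minimum total 15), TMM, robust glmQLFit and a two-sided glmQLFTest. Benjamini-Hochberg adjustment over 14469 genes and a threshold of 0.05 were applied. The fit was tested on simulated data. Levels per kilobase used GENCODE M21 exon lengths on GRCm38. Libraries of 1 genotype differed by more than counting noise (chi-square per gene 5.42 to 43.0), so each was kept. With 3 against 3 libraries an exact test on 1 gene cannot reach the threshold, so p-values come from edgeR's fit across genes.

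The members and gene lists were chosen with earlier results of these data known. Named genes were the members, other CD300 genes, listed pathway genes past the threshold with 6 adaptors and phosphatases, tested neighbours, the 5 genes most like the leading member, and Pdcd1 and Lyz2. Pik3cd, Fgr, Plcg2, Src, Lyn, Cd14, Tlr4, Fcgr2b, Itgb5, Xist and the markers named with values were chosen after their values were seen. Alternatives were other normalizations and filters, DESeq2 1.42.0, limma 3.58.1 on log2(normalized value + 1), GC and length offsets (loess span 0.5), a replicate block, leaving out libraries and a threshold of 0.01. Leaving out 2 libraries together and the transcript lengths were chosen after seeing the data.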

Additional observations from a re-analysis of the deposited data

How the results depend on the processing

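Cd300a, Cd300e and Cd300c2 were past the threshold in all 16 alternative fits, Cd300lf in 14, Cd300lb in 12, Cd300lg in 1 and Cd300ld in none, and no member changed direction. Leaving out each library in turn gave 3 to 5 members past the threshold, with 3 without Pdcd1f/f replicate 2 and without Pdcd1f/fLysMcre replicate 1, and 222 to 3181 genes in all, the most without Pdcd1f/f replicate 1, against 786. The count over all genes was 1951 with every gene of at least 1 count, 1517 with DESeq2, 2565 with GC and length offsets (2671 with the replicate block added), 283 at an adjusted p of 0.01 and 3757 without Pdcd1f/f replicate 1 and Pdcd1f/fLysMcre replicate 2, the last chosen after seeing the data. The causes were not tested. Same-numbered libraries deviated together with r of −0.01, −0.10 and 0.22, so no pairing by number was seen, though so few libraries cannot exclude it. With the replicate block 1027 genes and the same number of members, 5, were past the threshold. The inhibitory share differed by −2.54 percentage points and by −2.89 to −2.20 with each library left out, but by −0.75 per exon length, by −0.92 per longest protein-coding transcript and by −6.36 without Cd300c2. The median of all genes moved by at most 0.02 in any fit. Depth limits Cd300lg, Cd300c and Cd300ld2, with 52 counts or fewer in every library.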
